A study of Mus musculus with 38 samples.

Results

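The matrix genes described here are the 44 collagen genes of the count table, every symbol written as Col, a number, the letter a and a number, with decorin (Dcn), lumican (Lum) and insulin-like growth factor 2 (Igf2), which fibroblasts of the brain's coverings and vessel walls also make. They are 47 of the 25230 genes in the table and were chosen by symbol, with earlier results of these data known. By the kind of protein they encode, 11 are fibrillar collagens, 6 are chains of the type IV network of basement membranes, and 8 are type VI chains grouped with Col26a1 and Col28a1. A further 4 are short-chain or anchoring collagens, 9 are fibril-associated collagens (FACITs), 4 are transmembrane collagens and 2 are multiplexins. Of the 47 genes, 46 had enough counts to be tested among 16309 genes, and 42 had at least 1 count in every library. Col10a1, a short-chain collagen best known from growing cartilage, was the one left out, with 0 counts in 11 libraries and at most 0.713 CPM (CPM, counts scaled to a common library size).

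Collagens are secreted or membrane proteins in which 3 chains wind into a triple helix, and many helices form only when partner chains of different genes are made by the same cell. In the adult brain the interstitial matrix holds little fibrillar collagen, which lies mostly in the meninges and around larger vessels, where fibroblasts make type I and type III chains together with the small leucine-rich proteoglycans decorin and lumican. Type IV chains form the sheet under endothelium and astrocyte endfeet, type VI forms beaded filaments next to it, and several transmembrane and fibril-associated collagens are made by neurons. Igf2 is a growth factor that the meninges, choroid plexus and mural cells of vessels release.

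Poly-A RNA came from tissue dissected out of the anterodorsal bed nucleus (stria terminalis), a forebrain nucleus of the anxiety and stress circuits, in wild-type mice. There were 9 libraries of stressed males and 10 of control males, and 9 libraries of stressed females and 10 of control females. Stressed mice of both sexes went through 6 weeks of chronic variable mild stress, with randomised stressors such as cold, restraint, forced swim, tilted cages, wet bedding and altered lighting, and control mice of both sexes did not. The series asks, through a model of sex, condition and their interaction, whether stress altered expression and whether it did so differently in males and females. The labels do not state that each library is a separate animal, so p-values measure the spread between libraries. In dissected tissue, fewer cells of a type and less RNA per cell cannot be told apart.

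Total counts ran from 9.06 to 84.84 M, and 1 count was worth 0.0116 to 0.115 CPM. Markers of the GABA neurons that make up this nucleus were high in every library, with Gad1 at 464 to 872 CPM and Slc32a1 at 133 to 302 CPM. Libraries stood apart in 3 ways that touch the results. Male stressed library 5 held choroid plexus transcripts, with 14 markers of that epithelium summing to 3337 CPM against 31.8 to 85.3 CPM in the other 37 libraries, and the counts, medians and differences that it moves most are given with and without it. In all 4 groups, libraries numbered 6 or above (18 libraries) differed from those numbered up to 5 (20 libraries), and the labels do not say what the numbers stand for. A set of 5 libraries (female stressed 1 and 2, male control 3, female control 1 and 6) was rich in myelin transcripts, with 12 oligodendrocyte markers summing to at least 21769 CPM against at most 17493 CPM elsewhere.

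Several collagen genes lie next to a partner chain, and the promoter windows of the chains on which the co-variation below turns are printed here. The sequences are RefSeq's, on GRCm38.p6 (the mm10 build). Each window holds 250 bases before and 50 after the gene's start, 5′ to 3′ on the gene's strand, and capitals mark the CCAAT box, read as ATTGG on the other strand, and the GC box GGGCGG, whose form on the other strand is CCGCCC. Col4a1 (chr8:11312777-11313076, minus strand) and Col4a2 (chr8:11312555-11312854, plus strand) are transcribed away from each other, and their windows share 78 bases.

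Col4a1: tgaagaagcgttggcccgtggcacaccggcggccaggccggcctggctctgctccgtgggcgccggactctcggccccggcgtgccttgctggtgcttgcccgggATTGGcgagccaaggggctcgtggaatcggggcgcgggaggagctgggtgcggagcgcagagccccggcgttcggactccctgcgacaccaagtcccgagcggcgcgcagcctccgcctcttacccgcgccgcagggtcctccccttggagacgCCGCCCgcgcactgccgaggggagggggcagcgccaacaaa
Col4a2: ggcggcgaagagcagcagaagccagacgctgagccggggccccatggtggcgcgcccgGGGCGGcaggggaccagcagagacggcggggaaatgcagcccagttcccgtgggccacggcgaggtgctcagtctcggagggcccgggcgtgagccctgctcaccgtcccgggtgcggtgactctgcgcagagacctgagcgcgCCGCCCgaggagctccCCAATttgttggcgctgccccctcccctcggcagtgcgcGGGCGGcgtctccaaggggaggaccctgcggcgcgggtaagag

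Col4a4 (chr1:82586800-82587099, minus strand) likewise faces away from Col4a3, with 71 bases between their starts, and neither motif is in its window.

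Col4a4: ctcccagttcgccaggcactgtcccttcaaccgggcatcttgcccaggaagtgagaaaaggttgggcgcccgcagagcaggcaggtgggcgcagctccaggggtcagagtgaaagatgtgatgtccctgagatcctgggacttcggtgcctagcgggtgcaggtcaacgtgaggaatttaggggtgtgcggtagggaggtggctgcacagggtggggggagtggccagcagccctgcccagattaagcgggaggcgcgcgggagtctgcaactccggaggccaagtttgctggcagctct

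Col6a1 (chr10:76725995-76726294, minus strand) and Col6a2 (chr10:76623355-76623654, minus strand) encode partner chains of type VI collagen and lie in tandem. The Col6a1 window holds neither motif, and that of Col6a2 holds 3 GC boxes, of which a pair overlap. RefSeq lists a second Col6a2 window (chr10:76623581-76623880), not printed, with 1 GC box.

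Col6a1: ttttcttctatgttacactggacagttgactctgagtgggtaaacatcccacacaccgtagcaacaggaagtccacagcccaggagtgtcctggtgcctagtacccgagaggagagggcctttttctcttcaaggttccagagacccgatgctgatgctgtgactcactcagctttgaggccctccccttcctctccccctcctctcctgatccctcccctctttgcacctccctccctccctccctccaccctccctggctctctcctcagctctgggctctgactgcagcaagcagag
Col6a2: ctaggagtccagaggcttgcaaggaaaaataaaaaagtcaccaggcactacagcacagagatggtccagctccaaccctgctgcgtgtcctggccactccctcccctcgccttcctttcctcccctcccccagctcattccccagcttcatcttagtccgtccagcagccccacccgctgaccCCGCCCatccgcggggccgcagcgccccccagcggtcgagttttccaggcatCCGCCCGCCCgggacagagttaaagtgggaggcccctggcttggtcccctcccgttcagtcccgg

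Col1a2 (chr6:4505368-4505667, plus strand), the second chain of type I collagen, holds both motifs in 2 copies each.

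Col1a2: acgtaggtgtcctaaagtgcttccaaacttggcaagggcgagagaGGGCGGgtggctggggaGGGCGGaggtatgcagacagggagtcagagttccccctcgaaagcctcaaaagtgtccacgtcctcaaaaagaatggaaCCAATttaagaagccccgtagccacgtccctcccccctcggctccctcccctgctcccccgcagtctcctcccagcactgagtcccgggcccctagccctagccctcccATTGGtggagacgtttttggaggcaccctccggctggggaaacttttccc

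RefSeq entries were matched for 36 of the 47 genes, with 42 windows. The GC box was in 25 of these windows (59.5%) against 35.7% of 32851 mouse promoters, the CCAAT box in 14 (33.3%) against 37.4%, and TATAAA, which reads as TTTATA on the other strand, in 5 (11.9%) against 13.6%. A match is a description of these letters on either strand and not a measured binding site. Col1a1, Col2a1, Col4a3, Col5a2, Col9a3, Col12a1, Col14a1, Col22a1, Col26a1, Dcn and Lum had no entry.

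Per kilobase of exon, the scale on which levels of different genes can be compared, the set was led by Col6a1, a chain of the beaded filaments around vessels and meninges. Its mean level was 88.2 CPM per kb, against 5.09 CPM per kb for the median tested gene, and it alone held 44.6% of the 197 CPM per kb of the 47 genes summed. The basement membrane chains Col4a2 and Col4a1 followed at 14.7 and 8.27 CPM per kb. Col25a1, a transmembrane collagen made by neurons, stood at 11.03 CPM per kb, and the FACIT Col16a1 at 7.79. Igf2 (7.54 CPM per kb), Col9a3, Col6a2 and Col11a2 were the other members above the median gene, so 9 of the 46 tested genes were. The chains that define fibroblast collagen were low. Col1a1 and Dcn each stood at 1.11 CPM per kb, Col1a2 at 0.932, Lum at 0.335 and Col3a1, the type III chain, at 0.206. In all, 18 of the 46 tested genes stayed under 1 CPM per kb, down to Col4a3 (0.0917) and Col4a4 (0.0688), chains of the type IV network best known from kidney and inner ear. Lum had no count in 3 libraries, where the limit that 3 counts set was 0.0972 to 0.344 CPM, and Col4a4 had none in male control 3, where it was 0.344 CPM. These limits cover counting error only.

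**Figure D1:**
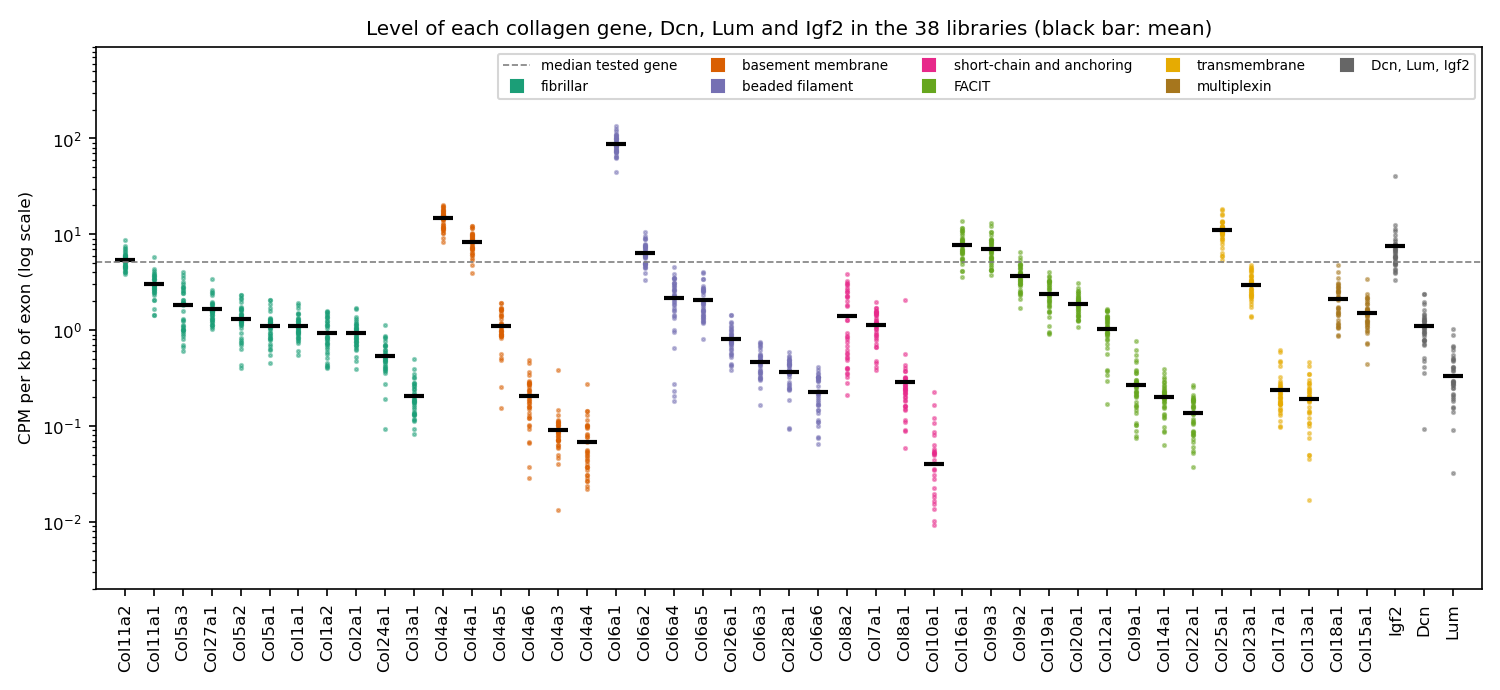
Mean level (black bar) and the 38 libraries (points) of the 47 genes in CPM per kb of exon on a log scale, by protein class, with libraries at 0 counts not drawn. Col6a1 stands highest at 88.2 CPM per kb, 9 tested genes lie above the median tested gene (dashed, 5.09), and Col10a1 is lowest.

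Partner chains were not present in equal amounts. Type VI collagen needs an alpha1, an alpha2 and a further, alpha3-like chain, yet per kb Col6a1 stood 13.9-fold above Col6a2 in the median library (11.1 to 17.8-fold over 38 libraries) and 197-fold above Col6a3 (115 to 630-fold). The Col4a1 to Col4a2 ratio per kb had a median of 0.573 and was under 1 in every library, although the type IV heterotrimer holds more alpha1 than alpha2. Col1a1 exceeded Col1a2 per kb in 29 of 38 libraries, with a median ratio of 1.20. Among the short-chain collagens of Descemet's membrane and vessel walls, Col8a2 stood 4.96-fold above Col8a1 per kb in the median library and above it in 37 of 38. These ratios rest on merged exon lengths of all annotated isoforms, so a long isoform that the tissue does not use lowers a gene's value per kb. Without a stated strand setting, reads in the stretch where Col4a1 and Col4a2 exons overlap on opposite strands cannot be told apart.

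Male stressed library 5 stood above the other 8 stressed males in 9 members and highest of all 38 libraries in 6. The same counts over all genes are not given here. Of the 46 tested members, female control 7 was highest in 7, and female control 9 and male control 9 in 5 each. A count of this size was thus not particular to male stressed library 5. Igf2 (chr7:142650766-142666816, minus strand) was at 230.8 CPM there, against 27.1 to 45.8 CPM in the other stressed males and at most 72.0 CPM in any other library. Col8a1, a short-chain collagen of vessel walls, was at 16.2 CPM against 1.25 to 4.44 CPM in the other stressed males. The next were the type IV chains Col4a3, at 3.79 CPM against at most 1.46 CPM elsewhere, and Col4a4, at 2.89 CPM against at most 1.53 CPM elsewhere. These 4 genes were 6.43-fold, 6.91-fold, 4.32-fold and 3.30-fold above the mean of the other 8 stressed males. Lum (2.54 CPM, at most 2.18 elsewhere) and Col9a3 (50.02 CPM, at most 46.6 elsewhere) were highest there by a small margin.

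Col1a1, Col1a2 and Col3a1 in library 5 lay within the range of the other stressed males, at 8.77, 13.6 and 3.12 CPM. Among the 5 stressed males numbered up to 5, however, library 5 was the highest in each of these chains. The medians of those 5 libraries were 6.18, 9.80 and 1.75 CPM. Of all 20 libraries up to 5, it was also the highest in Col1a2, Col3a1 and Dcn. Over the set, 35 of the 46 tested members in library 5 lay within the range of the other 8 stressed males. Dcn was at 13.8 CPM there against 4.14 to 9.57 CPM in the other stressed males, but female control 7 was higher at 13.9. Col5a2 and Col9a1 lay below the other stressed males, Col9a1 at 0.445 CPM against 1.07 to 3.11 CPM. The thyroxine carrier Ttr, the most abundant choroid plexus transcript, was at 2878 CPM in this library and at most 41.1 CPM elsewhere, and all 12 tested choroid plexus markers had a positive stressed minus control difference in males in the fit with it (median 1.82), against 9 of 12 without it (median 0.20). Summed fibroblast markers (461 CPM, 248 to 570 elsewhere) and mural markers (342 CPM, 204 to 375 elsewhere) in library 5 were within the range of all other libraries but above each of the other 8 stressed males, which reached 420 and 296 CPM. Its fibroblast sum was also the highest of the 33 libraries that were not myelin-rich. The part that these cell types play in the levels of these members was not tested.

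**Figure D2:**
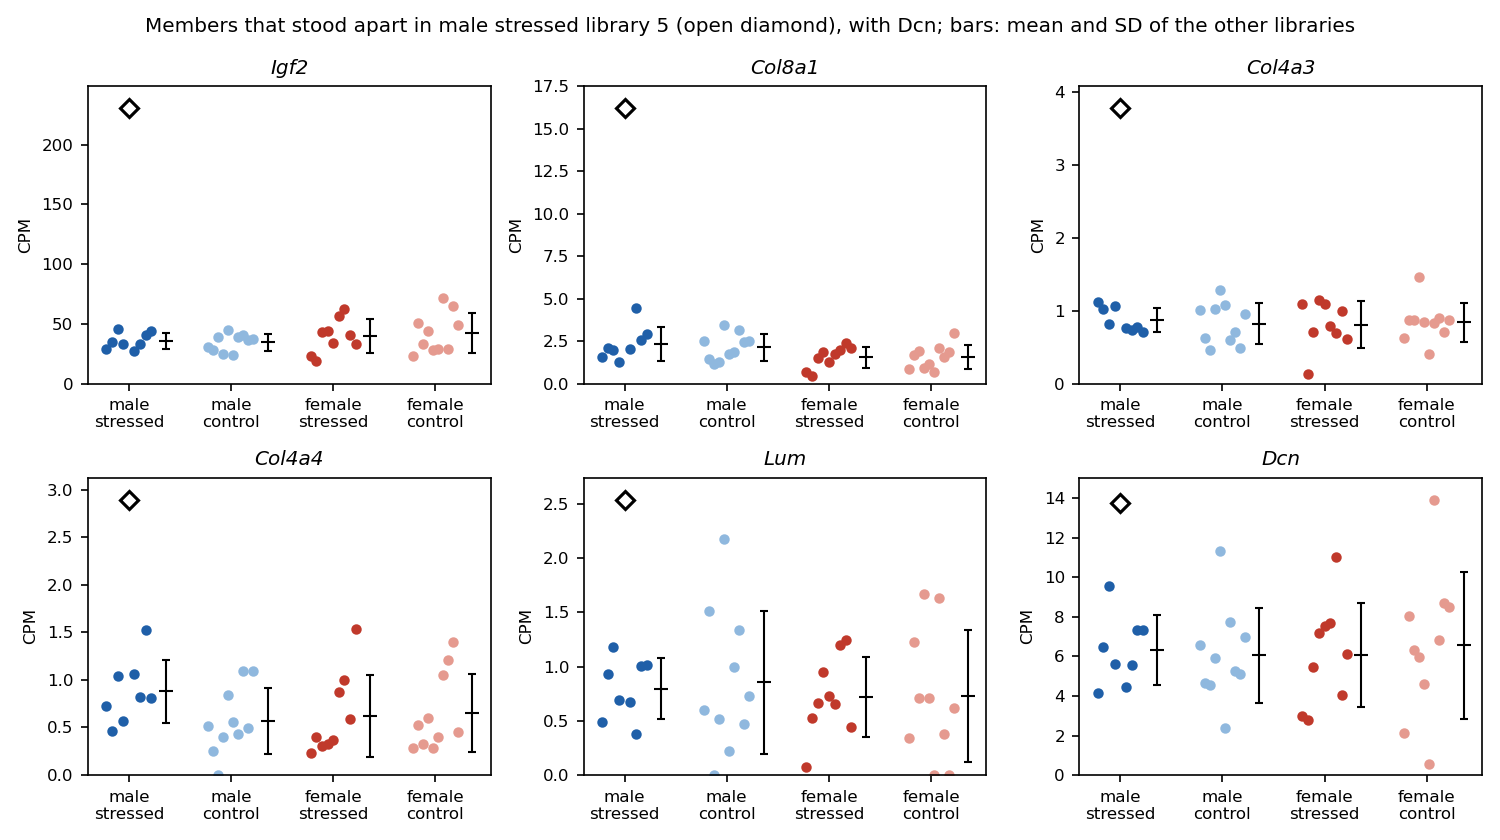
CPM of Igf2, Col8a1, Col4a3, Col4a4, Lum and Dcn in the 38 libraries by group, with male stressed library 5 as an open diamond and bars for mean and SD of the other libraries. Library 5 lies far above the rest for the first 4 genes (Igf2 at 230.8 CPM against at most 72.0 CPM), while for Dcn female control 7 is higher.

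In stressed against control males, none of the 46 members passed an adjusted p of 0.05 by edgeR's quasi-likelihood test with Benjamini-Hochberg adjustment, and 0% of the 16309 tested genes did. DESeq2 and limma voom also called 0 members. At an unadjusted p under 0.05 there were 4 members (Igf2, Col9a1, Col8a1 and Col4a4), with 4.02% of all genes, and DESeq2 and limma voom each had 4. Of the 46 log2 differences 33 were above 0 with a median of 0.14, against a median of -0.02 over all genes, and 30 lay within 1 SE of 0. Without library 5 the median was 0.09, again with 33 above 0, and 1 member was under the unadjusted threshold.

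Among the fibrillar and fibroblast genes, Col1a2 ran from 6.33 over a median of 11.9 to 17.9 CPM in stressed males and from 5.15 over 9.51 to 18.3 CPM in control males. Col1a1 ran from 5.40 over 6.91 to 9.86 CPM in stressed males and from 3.99 over 7.10 to 9.62 CPM in control males. The type I chains thus overlapped almost fully between the groups, and their log2 differences were 0.24 ± 0.26 (SE) and 0.09 ± 0.18, with 0.24 ± 0.27 for Col3a1. Without library 5 they were 0.23 ± 0.27, 0.06 ± 0.19 and 0.17 ± 0.28. Dcn, which binds collagen fibrils and sets their spacing, ran from 4.14 over 6.49 to 13.8 CPM in stressed males and from 2.38 over 5.59 to 11.4 CPM in control males. Its difference of 0.23 ± 0.32 was 0.06 ± 0.32 without library 5. Lum, a related proteoglycan of collagen fibrils, ran from 0.382 over 0.927 to 2.54 CPM in stressed males and from 0 over 0.666 to 2.18 CPM in control males. Its difference of 0.17 ± 0.50 was -0.13 ± 0.51 without library 5. The groups overlapped, both values lay within 1 SE of 0, and only the sign of the fitted difference changed with that library. Igf2 ran from 27.1 over 34.4 to 230.8 CPM in stressed males and from 24.1 over 37.2 to 45.2 CPM in control males. The median was lower in stressed males although the fitted difference was 0.74 ± 0.30 (adjusted p = 0.863), and without library 5 it was 0.07 ± 0.20. A readthrough gene absent from the count table shares 61.2% of the 50-base words of Igf2 transcripts, so its counts are less certain.

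All 6 basement membrane chains had a positive difference in males, with a median of 0.39, or 0.23 without library 5, but none passed. Col4a1 ran from 47.1 over 66.4 to 86.1 CPM in stressed males and from 42.3 over 61.0 to 77.0 CPM in control males, a difference of 0.15 ± 0.16. Col4a2 ran from 68.4 over 106 to 128 CPM in stressed males and from 55.4 over 104 to 129 CPM in control males, a difference of 0.03 ± 0.15. Without library 5 these were 0.17 ± 0.17 and 0.05 ± 0.15. These abundant chains overlapped between the groups, and the larger differences were those of scarcer ones. Col4a4 ran from 0.463 over 0.818 to 2.89 CPM in stressed males and from 0 over 0.502 to 1.09 CPM in control males. Its difference was 0.90 ± 0.39 (adjusted p = 0.863) and 0.60 ± 0.38 without library 5, and that of Col4a3 was 0.52 ± 0.30 and 0.07 ± 0.25 without it.

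Col8a1 showed the same dependence, with 1.25 over 2.11 to 16.2 CPM in stressed males and 1.15 over 2.15 to 3.42 CPM in control males. Its difference of 0.84 ± 0.36 was 0.14 ± 0.28 without library 5. The leading type VI chains lay within 1 SE of 0 in males, with -0.07 ± 0.14 for Col6a1 and -0.03 ± 0.15 for Col6a2 (-0.07 ± 0.14 and -0.04 ± 0.16 without library 5). Col26a1, a small collagen with an EMI domain, ran from 3.13 over 4.54 to 6.43 CPM in stressed males and from 3.59 over 6.28 to 8.16 CPM in control males, a difference of -0.33 ± 0.18 that was -0.37 ± 0.18 without library 5. It lay lower in the median stressed male, with overlap between the groups.

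Col9a1, a chain of the FACIT type IX, had the largest difference in males without library 5, and was 1 of 23 members whose difference was larger in size without it. It ran from 0.445 over 1.45 to 3.11 CPM in stressed males and from 0.380 over 0.865 to 1.93 CPM in control males. Without library 5 the lowest stressed male was at 1.07 CPM and the median at 1.62 CPM, and the groups still overlapped. The difference was 0.80 ± 0.34 (adjusted p = 0.863) with all libraries and 0.94 ± 0.33 (adjusted p = 0.901) without library 5, by edgeR's quasi-likelihood test. On leaving out each library in turn it ran from 0.67 to 0.96, and it was 1.20 ± 0.41 in libraries numbered 6 or above and 0.48 ± 0.49 in those up to 5. The other chains of type IX, Col9a2 and Col9a3, stood 15.6-fold and 25.5-fold above Col9a1 per kb in the median library and gave 0.04 ± 0.19 and 0.10 ± 0.20 in males.

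**Figure D3:**
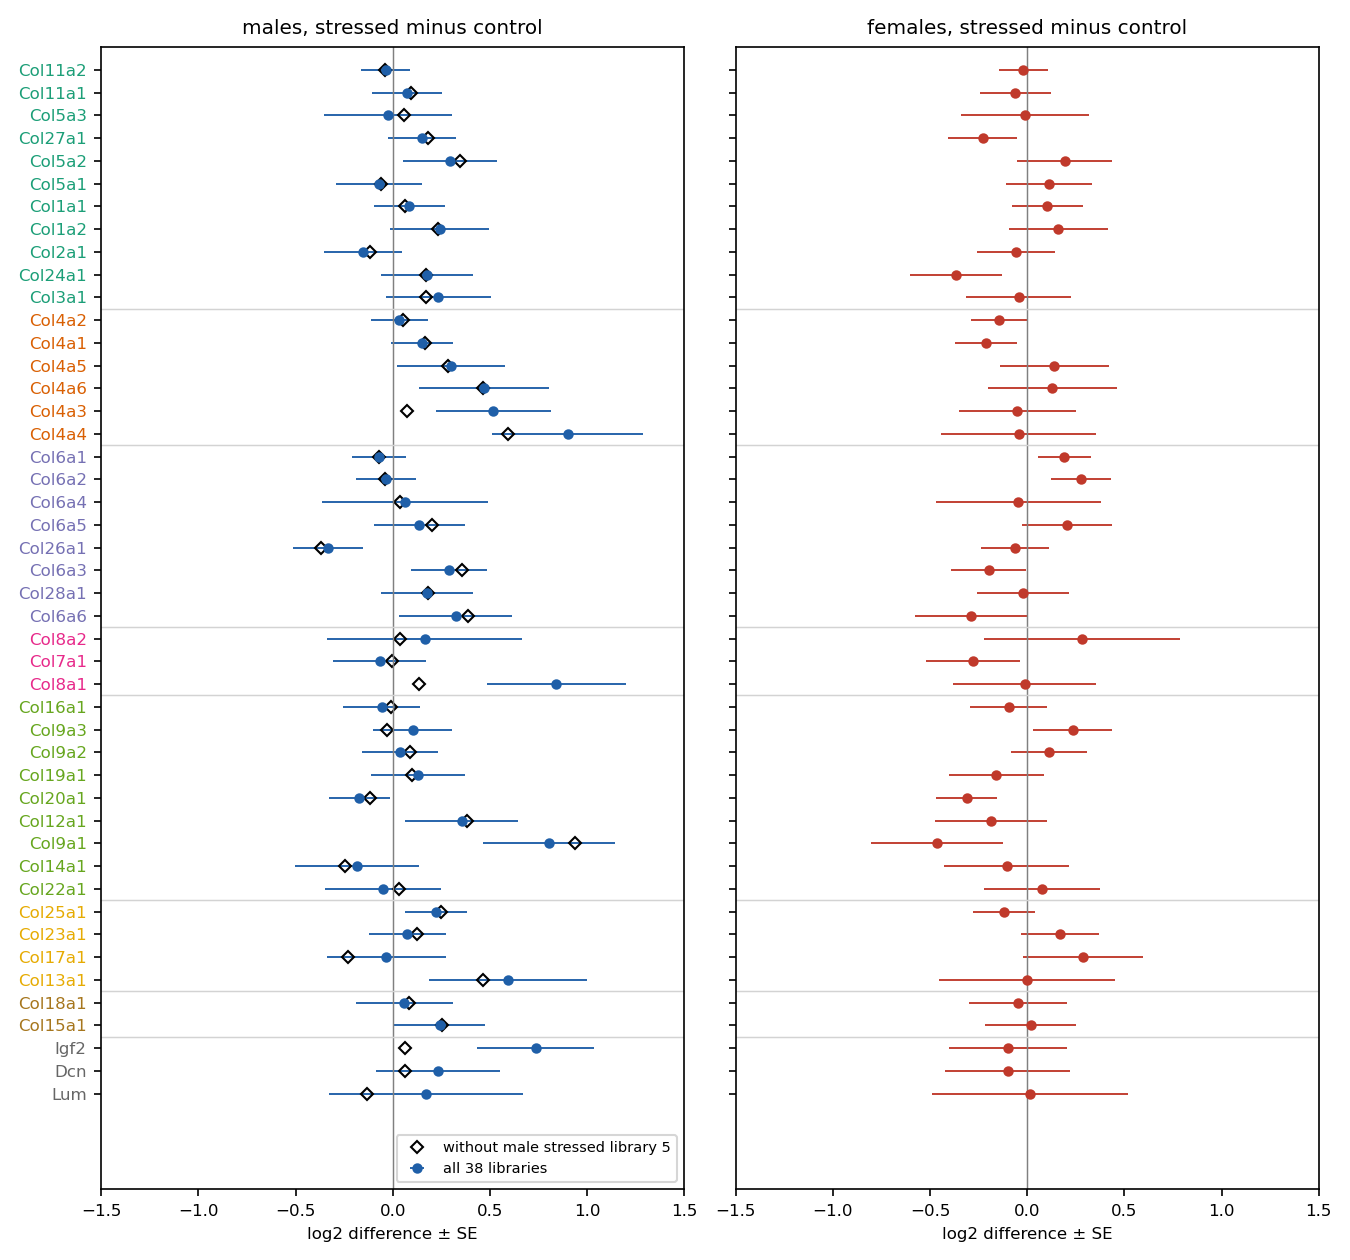
Log2 difference, stressed minus control, with SE for the 46 tested members in males (left) and females (right), ordered by protein class, with open diamonds for males without male stressed library 5. No member passes in either sex, and the diamonds of Igf2, Col8a1 and Col4a3 are at 0.07, 0.14 and 0.07, against 0.74, 0.84 and 0.52 with that library.

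In stressed against control females 0 of 46 members passed, as did 0% of the 16309 genes, and 0 members passed by DESeq2 or limma voom. At an unadjusted p under 0.05 there were 0 members by edgeR, 1 by DESeq2 and 5 by limma voom, with 1.89% of all genes by edgeR. Differences were above 0 for 17 of 46 members, with a median of -0.04 against 0.01 over all genes, and 35 lay within 1 SE of 0. By limma voom with quality weights 23 of 46 were above 0.

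By unadjusted p, the type VI chains Col6a2 and Col6a1 came first among the members above 0 in females. Col6a2 ran from 48.6 over 63.5 to 88.3 CPM in stressed females and from 37.3 over 52.9 to 75.3 CPM in control females. Col6a1 ran from 361 over 452 to 525 CPM in stressed females and from 294 over 368 to 551 CPM in control females. Both medians were higher under stress with wide overlap, and the differences of 0.28 ± 0.15 and 0.19 ± 0.14 did not pass (adjusted p = 1 for each by edgeR's quasi-likelihood test). The other type VI chains were split, with Col6a5 at 0.20 ± 0.23, Col6a4 at -0.05 ± 0.42, Col6a3 at -0.20 ± 0.19 and Col6a6 at -0.29 ± 0.29. By size, Col17a1 (0.29) and Col8a2 (0.28) lay at least as high as Col6a2. Col20a1, a FACIT, had the smallest unadjusted p among the members below 0, although Col9a1 and Col24a1 lay lower. It ran from 7.00 over 8.55 to 12.4 CPM in stressed females and from 7.23 over 11.1 to 15.9 CPM in control females. Its difference was -0.31 ± 0.16 in females and -0.17 ± 0.16 in males.

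Col24a1, a fibrillar collagen of developing bone and nervous tissue, ran from 0.706 over 4.07 to 6.64 CPM in stressed females and from 2.11 over 5.02 to 8.58 CPM in control females, a difference of -0.36 ± 0.24. It turned with the library numbers, being 0.17 ± 0.25 in those numbered 6 or above and -0.88 ± 0.36 in those up to 5. Col9a1 ran from 0.543 over 1.11 to 1.52 CPM in stressed females and from 0.399 over 1.36 to 3.88 CPM in control females, a difference of -0.46 ± 0.34. The basement membrane chains Col4a1 and Col4a2 gave -0.21 ± 0.16 and -0.14 ± 0.15. The fibroblast genes overlapped between the female groups, with 0.16 ± 0.26 for Col1a2, 0.10 ± 0.18 for Col1a1, -0.04 ± 0.27 for Col3a1, -0.10 ± 0.32 for Dcn, 0.01 ± 0.51 for Lum and -0.10 ± 0.30 for Igf2.

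The effect of stress in males minus that in females was tested directly as an interaction. No member passed, 0% of all genes did, and 0 members passed by DESeq2 or limma voom. At an unadjusted p under 0.05 there was 1 member, Col9a1, with 4.51% of all genes, while DESeq2 and limma voom each had 2. Its interaction was 1.27 ± 0.48 (unadjusted p = 0.0117, adjusted p = 0.845), and 1.40 ± 0.46 without library 5 (adjusted p = 0.876). It lay between 1.00 and 1.42 on leaving out each library in turn and stood at 1.35 ± 0.58 in libraries numbered 6 or above and 1.20 ± 0.69 in those up to 5. The interaction of Igf2, 0.83 ± 0.43, was 0.16 ± 0.28 without library 5, and that of Col8a1, 0.86 ± 0.51, was 0.15 ± 0.39. Col6a1 and Col6a2 lay on the other side at -0.26 ± 0.19 and -0.31 ± 0.22.

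Over the set, 30 of 46 interactions were above 0 with a median of 0.15 both with and without library 5, against -0.04 over all genes. All 6 type IV chains were above 0 with a median of 0.35, or 0.27 without library 5. The number sets went opposite ways here. In libraries numbered 6 or above 17 of 47 interactions were above 0 with a median of -0.13, and in those up to 5 there were 40 of 46 with a median of 0.45. The stress differences in males split likewise, with 24 of 47 above 0 (median 0.0021) from 6 and 42 of 46 (median 0.28) up to 5. In females they were above 0 for 31 of 47 (median 0.11) from 6 and for 13 of 46 (median -0.12) up to 5. With a term for the number set in the fit of all libraries the interaction median was 0.20 with 33 of 46 above 0, and 0 members passed. Col9a1 was positive in both sets, while the medians of the members differed in sign between them, a difference that was not tested. The myelin-rich libraries were spread unevenly here. Female stressed 1 and 2, female control 1 and male control 3 are numbered up to 5, female control 6 is not, and no stressed male is among them. Of the 46 tested members these 5 libraries were lowest in 7, 10, 2, 8 and 3, and male control 5, not among them, in 10. Their part in the split between the sets was not tested. Averaged over the sexes, stressed minus control, 0 members passed, as did 0% of all genes, and 1 (Col20a1) was under an unadjusted 0.05, with 1.47% of all genes. That fit holds no term for the number set. With a replicate block, which also takes up the number sets, 0 members passed. Col6a5 then gave 0.25 ± 0.09 (0.17 ± 0.16 without the block) and Col8a2 0.57 ± 0.21 (0.22 ± 0.36). Both, with Col1a2, Col4a6 and Col5a2, were under an unadjusted 0.05 there, and Col20a1 was not. The share of all genes in that fit is not given here.

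In control mice, males minus females, 0 members passed, against 0.0674% of all genes (0.0491% higher and 0.0184% lower), and DESeq2 and limma voom also passed 0. Unadjusted, 2 members were under 0.05, with 4.16% of all genes, 2 by DESeq2 and 4 by limma voom, and 0 by edgeR without male stressed library 5. Col24a1 ran from 2.74 over 3.20 to 6.52 CPM in control males and from 2.11 over 5.02 to 8.58 CPM in control females, a difference of -0.47 ± 0.23. Col26a1 ran from 3.59 over 6.28 to 8.16 CPM in control males and from 4.67 over 7.59 to 11.7 CPM in control females, a difference of -0.35 ± 0.17. Both medians were lower in males with overlap between the sexes, and neither passed (adjusted p = 1.00 by edgeR's quasi-likelihood test). All 8 genes of the type VI class lay below 0 in this comparison, with a median of -0.32, and all 6 type IV chains did, with a median of -0.15.

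In stressed mice, males minus females, 0 members passed, against 0.0858% of all genes (0.0797% higher and 0.00613% lower), and DESeq2 and limma voom passed 0 as well. At an unadjusted p under 0.05 there were 6 members, with 11.1% of all genes, 8 by DESeq2 and 6 by limma voom. Col25a1, the neuronal transmembrane collagen, ran from 138 over 157 to 236 CPM in stressed males and from 77.6 over 127 to 153 CPM in stressed females. All 9 stressed males lay above the median stressed female, with overlap at the edges, and the difference of 0.55 ± 0.17 (adjusted p = 0.378) was 0.57 ± 0.17 without library 5, 0.56 ± 0.24 from 6 and 0.54 ± 0.22 up to 5. Col26a1 ran from 3.13 over 4.54 to 6.43 CPM in stressed males and from 5.10 over 7.23 to 11.9 CPM in stressed females. Its difference of -0.62 ± 0.18 (adjusted p = 0.374) was -0.65 ± 0.19 without library 5. Col6a2 and Col6a1 gave -0.43 ± 0.16 and -0.31 ± 0.14, neither passing. The difference of Col8a1, 1.31 ± 0.37 (adjusted p = 0.352), was 0.60 ± 0.29 without library 5, and that of Igf2 turned to -0.13 ± 0.21 without it, against 0.54 ± 0.31 with it. Over the set 31 of 46 differences were above 0 with a median of 0.11, but 22 of 46 with a median of -0.02 without the 5 myelin-rich libraries, and the sets again went opposite ways, with 12 of 47 above 0 from 6 and 37 of 46 up to 5.

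Genes that act with collagens were counted beside the members, and none of any list passed in a stress comparison by edgeR's quasi-likelihood test. Of all tested genes 45.0% were above 0 in males, 53.6% in females and 44.2% for the interaction, and several lists lay near these shares. Counts for the lists without the 5 myelin-rich libraries are not given here. Of 15 other basement membrane genes (laminins, nidogens and perlecan among them), 13 were above 0 in males with a median of 0.23 and 2 in females with a median of -0.11. Without library 5 the count in males was 14 with a median of 0.22. Lamc1, the common laminin gamma chain, gave 0.22 ± 0.09 in males, -0.20 ± 0.09 in females and an interaction of 0.42 ± 0.13 (adjusted p = 0.845). Hspg2, which encodes perlecan, had an interaction of 0.61 ± 0.30. Without library 5 these interactions were 0.42 ± 0.13 and 0.50 ± 0.29. Of 12 endothelial markers 9 were above 0 in males and 0 in females, and all 12 interactions were above 0 with a median of 0.30. Without library 5 these counts were 8 in males and 10 for the interaction, with an interaction median of 0.24. Their summed level ran from 269 over 353 to 445 CPM in stressed males and 214 over 283 to 447 CPM in control males, and from 216 over 332 to 370 CPM in stressed females and 276 over 342 to 446 CPM in control females. The share of endothelium in the type IV and laminin values was not tested.

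Of 8 genes that trim procollagen, 6 were above 0 in males and 3 in females. Of 25 genes that fold, hydroxylate and crosslink the chains, 12 were above 0 in males and 14 in females, and the lysyl hydroxylase Plod1 gave 0.13 ± 0.13 in males and -0.31 ± 0.13 in females. Collagen receptors were above 0 in 8 of 9 cases in males and 3 of 9 in females, and genes of collagen turnover in 9 of 12 and 4 of 12. Of the turnover genes, the membrane protease Mmp16 gave 0.38 ± 0.19 in males and -0.11 ± 0.19 in females. The 17 genes of TGF-beta signalling, which drives collagen transcription in fibroblasts, were above 0 in 12 cases in males and 6 in females, and 12 other small leucine-rich proteoglycans in 9 and 8. In the IGF axis 8 of 12 genes were above 0 in males and 4 in females, and the receptor Igf1r gave 0.21 ± 0.10 in males and -0.14 ± 0.10 in females. Of 17 tested fibroblast markers 11 were above 0 in males (median 0.17) and 8 in females (median -0.0032), and of 14 mural markers 6 and 9. Without library 5 the counts above 0 in males were 4 of 8 for procollagen trimming, 11 of 25 for folding, 8 of 9 for receptors, 8 of 12 for turnover, 11 of 17 for TGF-beta signalling, 6 of 12 for the other proteoglycans, 7 of 12 for the IGF axis, 10 of 18 for fibroblast markers (median 0.04) and 5 of 14 for mural markers.

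Calls among the members were found between the number sets. In libraries numbered 6 or above minus those up to 5, 28 of 46 members passed, 27 higher and 1 lower, in a background where 45.5% of all genes passed, 23.2% higher and 22.3% lower. At an unadjusted p under 0.05 there were 33, with 52% of all genes. The median difference of the members was 0.45 against 0.01 over all genes. Every class but Dcn, Lum and Igf2 had passing members, with 7 of 11 fibrillar collagens, 5 of 6 type IV chains, 4 of 8 genes of the type VI class, 6 higher and 1 lower of 9 FACITs, 2 of 3 short-chain genes, 2 of 2 multiplexins and 1 of 4 transmembrane collagens.

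The difference was widest for Col8a2, which ran from 2.19 over 10.2 to 17.4 CPM from 6 and from 0.942 over 2.44 to 13.3 CPM up to 5. It rose by 1.79 ± 0.24 (log2, adjusted p = 2.58e-07 by edgeR's quasi-likelihood test), and by 1.97 ± 0.21 without male stressed library 5, the highest of those up to 5, without which they reached 5.68 CPM. Col5a3, a type V chain, ran from 7.43 over 17.6 to 27.8 CPM from 6 and from 4.16 over 6.95 to 14.1 CPM up to 5, and rose by 1.20 ± 0.14 (adjusted p = 2.54e-08). Col6a5, an alternative alpha3-like chain of type VI, ran from 15.2 over 24.7 to 38.4 CPM from 6 and from 7.67 over 13.4 to 18.7 CPM up to 5, and rose by 0.86 ± 0.09 (adjusted p = 3.63e-09). The medians stood well apart in all of these genes, and the sets overlapped at the edges for Col6a5. For Col8a2 the sets overlapped from 2.19 to 13.3 CPM, and without male stressed library 5 still from 2.19 to 5.68 CPM. Col6a5 shares 3.42% of its 50-base words with Col6a6, which rose by 0.78 ± 0.16.

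Col4a1 ran from 55.5 over 71.5 to 91.1 CPM from 6 and from 29.5 over 52.3 to 72.7 CPM up to 5, and rose by 0.50 ± 0.08 (adjusted p = 3.31e-06), with 0.45 ± 0.07 for Col4a2. Col1a2 ran from 5.25 over 15.5 to 19.8 CPM from 6 and from 4.94 over 8.93 to 13.6 CPM up to 5, and rose by 0.75 ± 0.14. The multiplexins Col18a1, the source of endostatin, and Col15a1 rose by 0.70 ± 0.14 and 0.64 ± 0.13, and the transmembrane Col23a1 by 0.69 ± 0.09. Col19a1, a FACIT made by interneurons, fell by 0.55 ± 0.15 (adjusted p = 0.00277), from 6 at 6.38 over 13.6 to 21.97 CPM and up to 5 at 6.21 over 20.5 to 27.6 CPM.

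Dcn, Lum and Igf2 did not pass here. Dcn ran from 0.549 over 6.91 to 13.9 CPM from 6 and from 2.11 over 5.94 to 13.8 CPM up to 5, a difference of 0.09 ± 0.23. Lum gave -0.34 ± 0.35 and Igf2 0.05 ± 0.22. Without male stressed library 5 Igf2 gave 0.27 ± 0.13 (adjusted p = 0.0965). Without that library Col8a1 rose by 0.53 ± 0.17 (adjusted p = 0.0123), against 0.20 ± 0.26 with it, and 30 members passed in all, with Col3a1, Col8a1 and Col9a1 added and Col20a1 lost. Col6a1 missed the threshold at 0.20 ± 0.09 (adjusted p = 0.0692) and Col6a2 passed it narrowly at 0.27 ± 0.10 (adjusted p = 0.0303). Col6a2 no longer passed without female control 4, male control 5 or male control 6, Col20a1 without any 1 of 27 libraries, and Col6a1 passed without male control 3 or male stressed 1, 7 or 8. Marker sums moved with the sets. Ependymal markers had a median sum of 203 CPM from 6 and 73.9 CPM up to 5, with 10 of 10 passing as higher. Oligodendrocyte markers had 6187 and 13207 CPM with 12 of 12 lower, and fibroblast markers 296 and 389 CPM with 3 of 17 higher and 3 lower. Without male stressed library 5, however, 11 of 18 fibroblast markers were above 0 (median 0.17), and 7 passed in either direction. The summed level of that list thus does not describe most of its genes. The part of these cell types in the collagen differences was not tested.

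**Figure D4:**
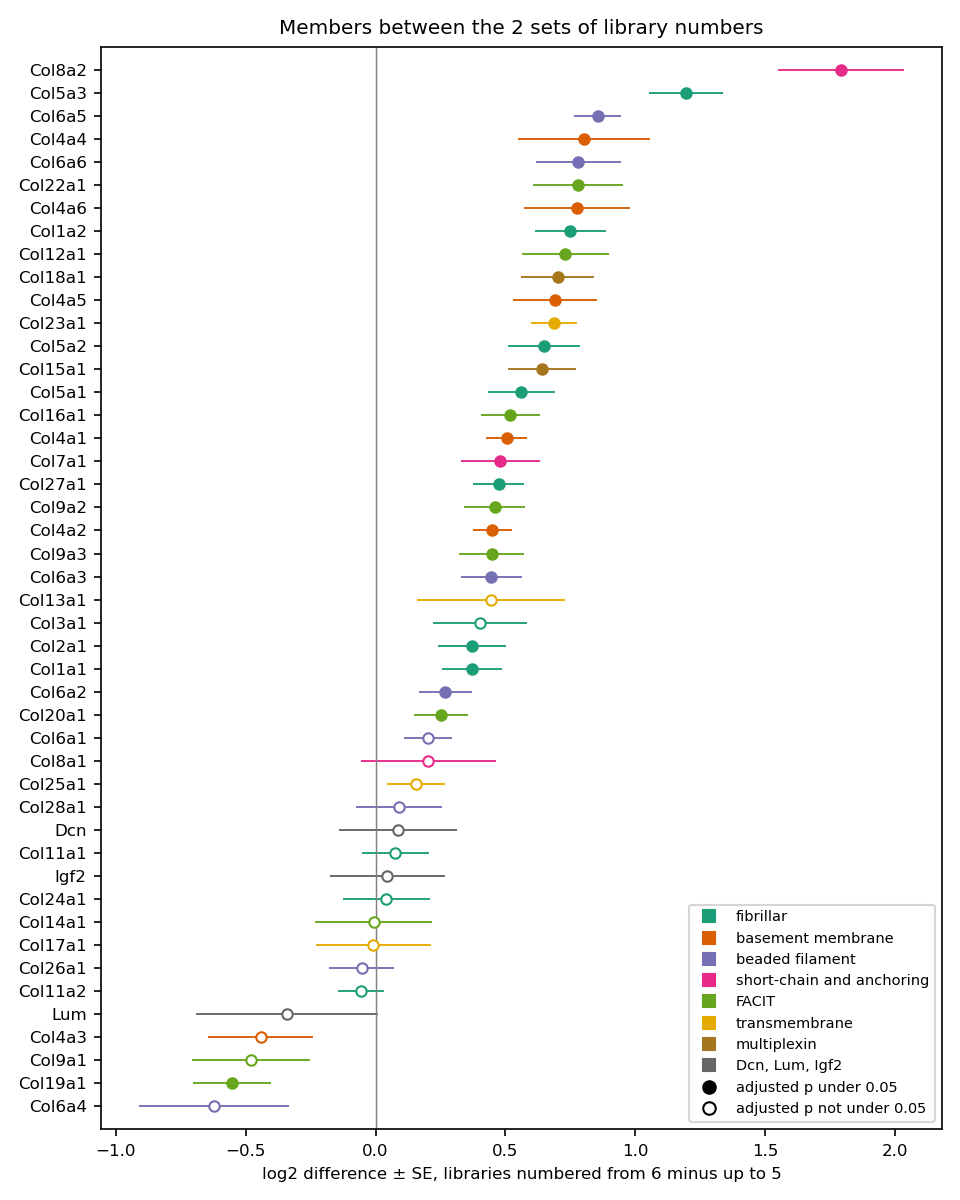
Log2 difference with SE of the 46 tested members between libraries numbered 6 or above and those up to 5, coloured by protein class, filled where the adjusted p is under 0.05. Col8a2 is farthest right at 1.79, 27 filled points lie right of 0 and Col19a1 is the only filled point left of it.

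Partner chains were then compared library by library, as deviations of log2 CPM from the mean of a library's group within its number set, so that neither the groups nor the sets enter. For 20 pairs Pearson's r was tested by 100000 permutations of libraries within groups and sets, two-sided, with Benjamini-Hochberg adjustment over the 20, and 13 passed. Both genes of a pair share a library and its depth. Col6a1 and Col6a2 had the highest r, 0.86 (rho 0.85, p = 1e-05 for each, the smallest that permutations can give, adjusted p = 0.0001). It was 0.82 without the 2 libraries farthest out in Col6a1, 0.88 from 6 and 0.87 up to 5. Col6a1 and Col6a3, chains of the same trimer, had r = 0.02 (p = 0.930, rho 0.00, p = 0.989). The pair whose windows are printed above thus lay along a line in both sets, and Col6a3 gave an r near 0 with Col6a1.

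For Col4a1 and Col4a2, the pair with overlapping promoter windows, r was 0.50 (p = 0.0008, rho 0.60, p = 0.00029, adjusted p = 0.00229), 0.52 without the 2 farthest libraries, 0.87 from 6 and 0.38 up to 5. With all libraries the relation was looser in those up to 5. Without the 5 myelin-rich libraries r was 0.89, with 0.95 up to 5 and 0.82 from 6, so the looser relation up to 5 was not seen there. The other divergent type IV pairs had r = 0.45 for Col4a3 with Col4a4 (p = 0.00663, rho 0.43, p = 0.0115, adjusted p = 0.0147) and r = 0.61 for Col4a5 with Col4a6 (p = 0.00238, rho 0.51, p = 0.00271, adjusted p = 0.00595). The first no longer passed without male stressed library 5, at r = 0.31, and the second no longer passed without the 5 myelin-rich libraries, at r = 0.28.

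Col1a2 had a higher r with the proteoglycans than with its own partner chain. With Dcn r was 0.74 (p = 9e-05, rho 0.62, p = 0.00021, adjusted p = 0.00045), 0.58 without the 2 farthest libraries, 0.84 from 6 and 0.54 up to 5. With Lum it was 0.69 (p = 1e-05, rho 0.67, p = 7e-05, adjusted p = 0.0001), 0.64 without the 2 farthest, 0.63 from 6 and 0.78 up to 5. With Col1a1 it was 0.32 (p = 0.106, rho 0.31, p = 0.0918, adjusted p = 0.141), 0.12 without the 2 farthest, 0.61 from 6 and -0.04 up to 5. Without the 5 myelin-rich libraries Col1a2 with Col1a1 passed at r = 0.41, with 0.40 from 6 and 0.44 up to 5. There r was 0.63 with Dcn and 0.53 with Lum. The difference between these correlations was not tested. Dcn and Lum had r = 0.62 (p = 0.00015, rho 0.61, p = 0.00015, adjusted p = 0.0006).

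Igf2 and Col1a2 had r = 0.52 (p = 0.0006, rho 0.50, p = 0.00312, adjusted p = 0.002), and 0.53 without male stressed library 5. With the choroid plexus marker Ttr its r of 0.49 did not pass (p = 0.133, rho 0.16, p = 0.372, adjusted p = 0.160) and was -0.08 without library 5, so that relation rested on 1 library. Col15a1 and Col18a1, the multiplexins of basement membranes, had r = 0.64 (p = 4e-05, rho 0.71, p = 1e-05, adjusted p = 0.000267), 0.77 from 6 and 0.55 up to 5. Pairs of Col1a2 with Col4a1, Col8a1 with Col8a2, Col5a1 with Col5a2 and Col9a2 with Col9a3 also passed, with r from 0.45 to 0.47. Of these, Col8a1 with Col8a2 fell to 0.16 without the 2 farthest libraries and to 0.23 without male stressed library 5.

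**Figure D5:**
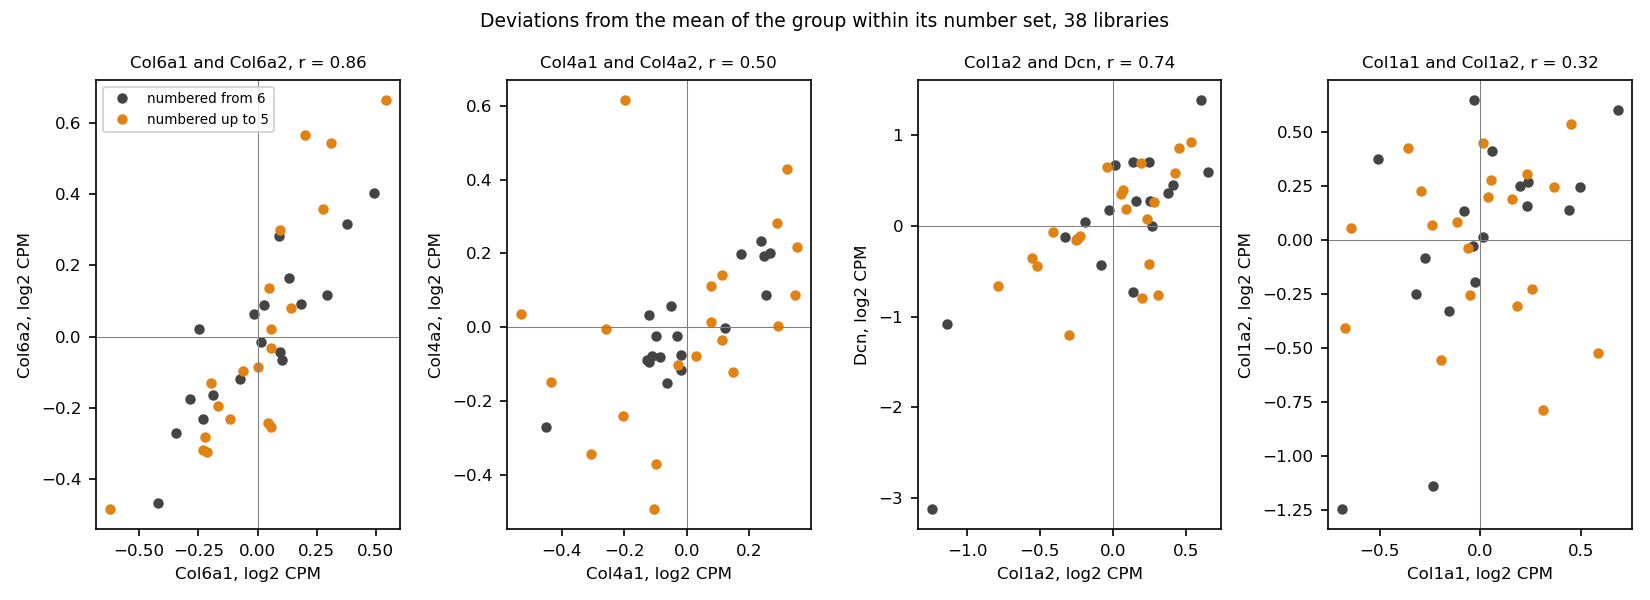
Deviations of log2 CPM from the mean of each group within its number set for 4 gene pairs in 38 libraries, dark for libraries numbered 6 or above and orange for those up to 5. Col6a1 and Col6a2 lie along a line (r = 0.86), as do Col1a2 and Dcn (r = 0.74). Col4a1 and Col4a2 do so mainly in the dark points, and Col1a1 and Col1a2 are scattered (r = 0.32). Without the 5 myelin-rich libraries r was 0.89 for Col4a1 and Col4a2 and 0.41 for Col1a1 and Col1a2.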

How the data were processed

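RNA-seq libraries were made with a stranded poly-A mRNA kit per the labels' protocols. The authors deposited raw counts per gene for 38 libraries, and the submitters' processing notes name STAR, featureCounts, DESeq2 and mm10, without versions. How strand was set in counting, and with which annotation, is not given in the sources used here. No pair of libraries agreed within sampling noise (chi-square per gene at least 7.82).

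From these counts, genes were filtered by filterByExpr on group (8921 removed, 16309 tested) and scaled by TMM. The 4 groups of all 38 libraries were fitted together with edgeR 4.0.16 (quasi-likelihood test) in R 4.3.3, with Benjamini-Hochberg adjustment over all tested genes and a threshold of 0.05. The number-set comparison added a set term. Alternatives were DESeq2 1.42.0, limma 3.58.1 voom with quality weights, DESeq2 size factors, no low-count filter, the number-set term, each set alone, the replicate block and leaving out libraries. Levels per kb use merged exon lengths of GENCODE M21. Co-variation used log2 CPM with a prior count of 2. Only the edgeR fit of stress in males was run on simulated data, which held no number-set difference, myelin-rich libraries or outlying library. Its outcome is not given here.

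Named genes are members that passed anywhere or had the 3 smallest p-values in a direction, the main fibrillar, type IV, VI and VIII chains, the 5 highest per length, outlying values and up to 4 genes of other lists. Members and lists were chosen with earlier results of these data known.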

Additional observations from a re-analysis of the deposited data

Results flagged for a closer look

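In 18 of 184 sets of 1 gene in 1 group, the highest or lowest library stood apart from the others by Dixon's criterion on log2 CPM. Chance alone gives about 1 in 20, or 9.2 of 184. No explanation was tested for any of them.

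Male stressed library 5 accounted for 3, with Igf2 at 230.8 CPM (27.1 to 45.8 in the other stressed males), Col8a1 at 16.2 CPM (1.25 to 4.44) and Col4a3 at 3.79 CPM (0.711 to 1.12). Among stressed males Col27a1, a fibrillar collagen, was high in library 8 at 44.9 CPM (17.6 to 24.6 in the others), and Col6a4, an alpha3-like type VI chain, was low in library 6 at 1.55 CPM (11.4 to 26.4). Col6a4 was also low in female control 10 at 1.98 CPM (8.18 to 38.7), while male control 7 and 9 were at 1.73 and 2.31 CPM without standing apart by the criterion.

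In control males, Col11a1 was high in library 2 at 73.3 CPM (26.6 to 43.8 in the others) and Col24a1 was high in library 6 at 6.52 CPM (2.74 to 4.06). Col4a5 was low in library 3 at 1.03 CPM (5.80 to 10.9), and Col4a4 was at 0 CPM there (0.251 to 1.09), where 3 counts would be 0.344 CPM.

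In stressed females, library 2 was low in Col28a1 at 0.463 CPM (1.17 to 2.63 in the others) and in Col4a3 at 0.132 CPM (0.607 to 1.15). Col14a1 was at 0 CPM there (0.919 to 1.57), where 3 counts would be 0.198 CPM. Lum was low in stressed female library 1 at 0.0785 CPM (0.447 to 1.24).

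In control females, 4 members stood apart in library 6. Col17a1 was high at 3.54 CPM (0.811 to 1.52 in the others), Col19a1 was low at 6.38 CPM (12.1 to 25.1), and Col25a1 was low at 76.5 CPM (115 to 175). Col13a1 was at 0 CPM (0.228 to 1.39), where 3 counts would be 0.150 CPM. Stressed female libraries 1 and 2, male control 3 and female control 6 are among the 5 myelin-rich libraries.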

How the results depend on the processing

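No member passed in a stress or sex comparison under any alternative run, and 26 to 28 of the 28 members that passed between the number sets did so with DESeq2, limma voom, DESeq2 size factors, no filter, without the 5 myelin-rich libraries and on leaving out each library. A replicate block or a single set gives no number-set comparison. A change of sign is counted only where a value was called or exceeded its SE. In libraries numbered 6 or above alone Col24a1 in stressed females gave 0.17. In those up to 5 alone Col6a1 and Col6a2 in stressed males gave 0.25 and 0.28, and Col8a2 gave an interaction of 1.22 and a male minus female difference in controls of -0.49. Genes passing between the sexes numbered 11 in controls, with 21 by DESeq2, 30 by limma voom and 7 up to 5 alone, and 14 in stressed mice, with 8 up to 5 alone and 6 from 6 alone. Leaving out 1 library gave 9 to 15 genes in each. Without the 5 myelin-rich libraries 9 of 20 pairs passed. Col1a1 with Col1a2 then passed at r = 0.41. Those no longer passing were Col4a3 with Col4a4 (0.55), Col4a5 with Col4a6 (0.28), Col5a1 with Col5a2 (0.48), Col8a1 with Col8a2 (0.47) and Col1a2 with Col4a1 (0.32), and Col3a1 with Col5a2 turned to -0.21. The cause was not tested. The stress difference of Igf2 averaged over the sexes ran from -0.014 to 0.38 on leaving out 1 library, the lowest being without male stressed library 5. Without that library Col4a3 with Col4a4 gave 0.31, Col8a1 with Col8a2 0.23 and Igf2 with Ttr -0.083.

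Replicate numbers did not pair the libraries. Of 55 pairs of libraries with one number 40 correlated above 0.1, the lowest at -0.36, and 9 of 38 libraries correlated best with their own number. With a replicate block, medians of the members were 0.20 in males, -0.04 in females and 0.18 for the interaction, and 0 members passed. Depth limits the 10 tested members under 2 CPM, where 1 count is up to 0.115 CPM.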
